A study of Mus musculus with 6 samples.

Results

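Oligodendrocyte progenitors are the dividing cells from which the myelinating cells of the brain are made, and they are recognized by the receptor Pdgfra, the surface proteoglycan Cspg4 (NG2) and a set of matrix and secreted proteins. A progenitor that leaves the cell cycle passes through a short committed or newly formed stage, marked by the receptor Gpr17, the early myelin protein Bcas1, the choline phosphodiesterase Enpp6 and the growth factor Bmp4, before it makes compact myelin. The 10 genes of these stages described here were chosen by name and are 6 progenitor genes (Pdgfra, Cspg4, Vcan, C1ql1, Lhfpl3 and Matn4) and 4 committed genes (Gpr17, Bcas1, Enpp6 and Bmp4), out of 37315 gene identifiers in the count files. Lhfpl3 was not found under its annotated identifier and has no value here, so 9 of the 10 genes were measured, 5 of them progenitor genes.

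The counts came from whole hippocampus of C57BL/6J mice aged 4 weeks, with 1 RNA-seq library for each of 6 groups. For the Nestin-Cre pair, Prrc2a flox/flox (f/f) mice were compared with Prrc2a flox/flox; nestin-cre mice, in which a transgene drives recombination in neural progenitors and all their progeny, neurons and astrocytes included. The Olig2-Cre pair set a further f/f library against Prrc2a flox/flox;Olig2-cre, whose Cre is driven by the endogenous Olig2 promoter and, as the study describes, leaves the mice with reduced Olig2 dosage. The Fto pair set WT against Fto Tg, which carries mouse Fto delivered by lentivirus under the ubiquitin C promoter. Prrc2a is an RNA-binding protein that reads N6-methyladenosine (m6A), and Fto is a demethylase that erases it. Both f/f controls carry the floxed allele, no library of Cre without the floxed allele is among the 6, and the labels do not say whether mice were pooled. Effects of Cre and of the deletion therefore cannot be told apart, and no difference within a pair can be checked against replicates. The f/f libraries are called the Nestin-pair control and the Olig2-pair control below.

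Library totals ran from 18616540 counts (Olig2-Cre) to 35482589 counts (Nestin-pair control), and levels are given in CPM, counts scaled by the library total. The Nestin-Cre library stood apart, with 26.2% of its counts on mitochondrial genes against 7.97% to 8.86% in the others, and a mean GC content of 45.7% against 48.5% to 49.2%. Its log2 ratios over its control had a median of -0.72 over all genes tested, and 75.2% of genes were below zero, whereas the median was -0.0031 for Olig2-Cre and -0.0050 for Fto Tg. Prrc2a itself stood at 434 and 184 CPM in the f/f and Nestin-Cre libraries, and at 389 and 346 CPM in the f/f and Olig2-Cre libraries. It stood at 351 CPM in WT and 334 CPM in Fto Tg. The Olig2-Cre log2 ratio of Prrc2a, -0.17, was smaller in size than that of WT over the Nestin-pair control, -0.30. Fto stood at 158 CPM in WT and 354 CPM in Fto Tg. The choroid plexus list (6 genes, all detected) summed to 278 CPM in Nestin-Cre, 698 in Fto Tg and 3435 in Olig2-Cre, against 1664 to 2884 in the 3 controls, and the part of this difference in the results below was not tested. Lists for pericytes and meningeal fibroblasts, which can also express Pdgfra or Cspg4, summed to 215 to 252 CPM and 257 to 300 CPM over the 6 libraries. In bulk tissue, fewer cells of a type and less RNA per cell cannot be told apart.

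Short stretches of these transcripts show what was assayed and where the m6A consensus lies. The study designed RT-qPCR primers for both classical progenitor markers, and their sequences are shown here because they fix which piece of each gene an independent assay would read. Positions are on GRCm38 with GENCODE M21 transcripts, and each primer is written 5′ to 3′.
Pdgfra forward primer, chr5:75173481-75173500, plus strand: acacgtttgagctgtcaacc
Pdgfra reverse primer, chr5:75175091-75175110, minus strand: cccgaccacacaagaacagg
Cspg4 forward primer, chr9:56885341-56885359, plus strand: gggctgtgctgtctgttga
Cspg4 reverse primer, chr9:56885452-56885472, minus strand: tgattcccttcaggtaaggca
Both Cspg4 primers lie in the coding part of exon 3 and span 132 bases. The Pdgfra forward primer lies in coding exon 8 and matched 5 of 9 annotated transcripts. The Pdgfra reverse primer matched only 1 of the 9, ENSMUST00000202186, a transcript of the non-stop decay class with a longer exon 9, where the pair spans 190 bases. The counts used here sum all exons of a gene, so they do not separate that transcript from the full-length one.

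The letters GGACT, the DNA form of the m6A consensus to which Prrc2a binds, were searched on the coding strand of the longest coding transcript of each gene. They occurred in 7 of the 9 coding sequences, against 77.3% of the 14868 genes compared. Windows are shown for Pdgfra, which was lower in every pair, for Matn4, which differed most between pairs, and for Bcas1, whose ratio changed sign between the Olig2-Cre and Fto pairs. Capitals mark the motif.
Pdgfra exon 5, chr5:75167938-75167962, plus strand: gacctgcagtGGACTtaccctggag
Pdgfra exon 22, chr5:75192441-75192465, plus strand: agattcacctGGACTtcctaaagag
Pdgfra exon 22, chr5:75192486-75192510, plus strand: gcatgcgggtGGACTctgataatgc
Pdgfra exon 22, chr5:75192543-75192567, plus strand: ataagctgaaGGACTgggaaggtgg
Matn4 exon 5, chr2:164397214-164397238, minus strand: tcaactccgtGGACTcgtatttctg
Matn4 exon 9, chr2:164392883-164392907, minus strand: cctattctccGGACTttagcaccat
Bcas1 exon 7, chr2:170384207-170384231, minus strand: ccccaggctaGGACTctcctttaga
Pdgfra held 4 matches in 3267 coding bases and Vcan 9 in 10062. Cspg4 held 5, Matn4 and Bmp4 held 3 each, Gpr17 held 2 and Bcas1 held 1. No match was found in the coding sequences of C1ql1 and Enpp6. A match is a description of the letters only, since methylation was not measured in these libraries.

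Per length, the committed markers Bcas1 and Gpr17 were the most abundant of the 9 RNAs, while Enpp6 and Bmp4 were in the lower range. On the scale of CPM divided by kilobases of exon (RPKM), the mean level over the 3 controls was 37.6 ± 0.270 (SD, n = 3) for Bcas1, 17.1 ± 2.80 for Gpr17, 7.81 ± 1.04 for Pdgfra and 6.35 ± 0.662 for C1ql1. These 4 genes had ranges that did not overlap. The other 5 lay close together, from 2.06 for Bmp4 to 2.56 for Enpp6. Among them the ranges of Enpp6 and Matn4 overlapped, as did those of Cspg4, Vcan and Enpp6, so their order is not resolved by the spread between controls.

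Among the progenitor genes, Pdgfra, the receptor for the mitogen PDGF-A, was lower in each altered library than in any control when scaled by library totals. It had 2667 and 1598 reads in the f/f and Nestin-Cre libraries, 2026 and 975 in the f/f and Olig2-Cre libraries, and 2267 and 2370 in WT and Fto Tg. Scaled by the totals, these were 75.2 and 46.0 CPM, 69.8 and 52.4 CPM, and 90.0 and 67.9 CPM. The altered libraries lay at 46.0 to 67.9 CPM and the controls at 69.8 to 90.0 CPM, without overlap. The margin between Fto Tg and the lowest control was narrow. How many of all genes are placed in this way was not counted. In Nestin-Cre alone, 72.8% of genes with a mean of at least 1 CPM were below all controls. The log2 ratios were -0.71 (95% counting interval -0.80 to -0.62), -0.41 (-0.52 to -0.30) and -0.41 (-0.49 to -0.32) in the Nestin-Cre, Olig2-Cre and Fto pairs. In the Nestin-Cre pair this call ended with TMM scaling (-0.02) and the sign turned with DESeq2 size factors (0.0068), and in the Fto pair it ended with an adjustment for GC content and exon length (-0.22). Pdgfra also differed between controls, with a log2 ratio of 0.37 for WT over the Olig2-pair control.

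Vcan, which encodes the matrix proteoglycan versican, followed the same order. It stood at 28.3 and 23.1 CPM (1005 and 803 reads) in the Nestin-Cre pair, 29.0 and 21.2 CPM (843 and 394 reads) in the Olig2-Cre pair, and 33.4 and 25.7 CPM (841 and 895 reads) in the Fto pair. All altered libraries were again below all controls. The log2 ratios were -0.29 (-0.43 to -0.16), -0.46 (-0.63 to -0.28) and -0.38 (-0.52 to -0.24). With the GC and length adjustment Vcan was at -0.20 in the Olig2-Cre pair and -0.083 in the Fto pair, and neither was called. The Nestin-Cre fall was smaller than the median fall of all genes, and relative to that median Vcan was 0.42 higher.

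Cspg4, the NG2 proteoglycan of progenitors and pericytes, was almost constant over the controls at 27.4, 27.2 and 27.3 CPM (972, 790 and 688 reads). It stood at 8.52 CPM (296 reads) in Nestin-Cre, 23.5 CPM (438 reads) in Olig2-Cre and 25.9 CPM (903 reads) in Fto Tg. The Nestin-Cre library was far below the rest, with a log2 ratio of -1.68 (-1.87 to -1.50). The other ratios were -0.21 (-0.38 to -0.04) and -0.08 (-0.22 to 0.07), and neither passed the call described below.

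C1ql1 and Matn4 did not share that order. C1ql1, a secreted C1q-like protein that is also made by some neurons, stood at 9.84 and 4.46 CPM (349 and 155 reads) in the Nestin-Cre pair, 8.23 and 9.24 CPM (239 and 172 reads) in the Olig2-Cre pair, and 10 and 11.1 CPM (252 and 387 reads) in the Fto pair. Its log2 ratios were -1.14 (-1.41 to -0.87), 0.17 (-0.12 to 0.45) and 0.15 (-0.08 to 0.38). Matn4, a matrilin of the extracellular matrix, stood at 13.8 and 2.36 CPM (488 and 82 reads), 12.1 and 13.3 CPM (350 and 247 reads), and 13.1 and 17 CPM (329 and 593 reads). Matn4 had the largest fall of the 9 genes in the Nestin-Cre pair, -2.54 (-2.87 to -2.20), and the highest ratio of the 9 in the Fto pair, 0.38 (0.19 to 0.57). Its ratio in the Olig2-Cre pair was 0.14 (-0.10 to 0.37).

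**Figure D1:**
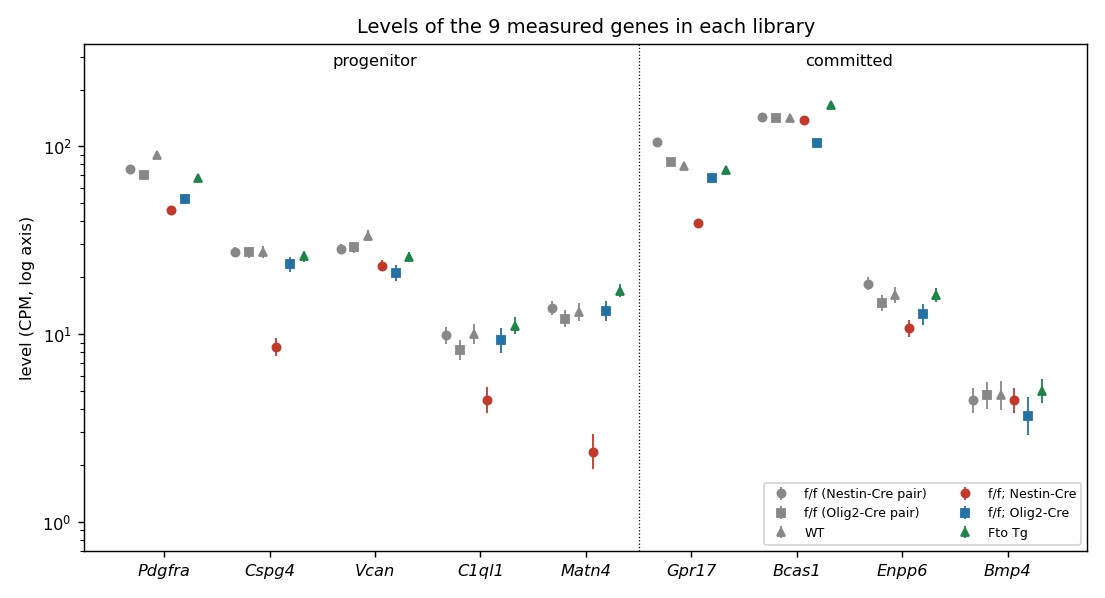
Levels of the 9 measured genes (CPM, log axis) in each of the 6 libraries, with grey symbols for the 3 controls, coloured symbols for the altered libraries, and bars for Wilson 95% intervals, which cover counting error only. The Nestin-Cre symbols of Cspg4 (8.52 CPM) and Matn4 (2.36 CPM) lie far below the other 5 libraries, whereas Bmp4 stays between 3.65 and 4.96 CPM in all 6.

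Among the committed genes, Gpr17, a receptor that peaks in committed precursors and is then switched off, was lower in each altered library than in any control. It stood at 106 and 39.0 CPM (3747 and 1356 reads) in the Nestin-Cre pair, 82.8 and 67.4 CPM (2403 and 1255 reads) in the Olig2-Cre pair, and 78.6 and 75.1 CPM (1981 and 2620 reads) in the Fto pair. The log2 ratios were -1.44 (-1.53 to -1.35), -0.30 (-0.39 to -0.20) and -0.07 (-0.15 to 0.02). Its controls differed as well, with log2 ratios of -0.35 for the Olig2-pair control and -0.43 for WT over the Nestin-pair control, and the Olig2-Cre ratio is within that spread.

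Bcas1, an early myelin protein that newly formed cells carry and mature cells retain, was the most even of the abundant genes over the controls. It stood at 143, 142 and 141 CPM in the controls (5077, 4111 and 3556 reads), and at 137 CPM (4767 reads) in Nestin-Cre, 104 CPM (1934 reads) in Olig2-Cre and 165 CPM (5753 reads) in Fto Tg. The Olig2-Cre and Fto Tg libraries lay on opposite sides of the controls, with log2 ratios of -0.45 (-0.52 to -0.37) and 0.22 (0.16 to 0.28). Both are larger than the largest difference between controls, a log2 ratio of -0.02. The Nestin-Cre ratio was -0.06 (-0.12 to -0.0042).

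Enpp6, a phosphodiesterase that marks newly forming oligodendrocytes, stood at 18.5 and 10.7 CPM (657 and 372 reads), 14.6 and 12.7 CPM (425 and 237 reads), and 16.1 and 16.1 CPM (405 and 562 reads) in the 3 pairs. Its log2 ratios were -0.79 (-0.97 to -0.61), -0.20 (-0.43 to 0.03) and 0.00 (-0.18 to 0.19). Bmp4, a secreted growth factor made by committed precursors and by other cells, had the lowest counts, with 157 and 154 reads (4.43 and 4.43 CPM), 137 and 68 reads (4.72 and 3.65 CPM), and 119 and 173 reads (4.72 and 4.96 CPM). Its log2 ratios of 0.00 (-0.32 to 0.32), -0.36 (-0.78 to 0.05) and 0.07 (-0.27 to 0.40) all had counting intervals that contain zero.

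A gene was called in a pair when the read-sampling test named by the study (the MARS method of DEGseq) gave a false discovery rate below 0.001 over all genes tested and the fold change was at least 1.2. Such a call compares the 2 libraries and not the genotypes. Of the 9 genes, 7 were called lower and 0 higher in the Nestin-Cre pair, where 53.4% of all genes tested were called lower and 11.5% higher, so most genes of any kind were called there. With TMM scaling, which sets the bulk of genes to no change, the same test called 4 members lower and 3 higher, and the 3 higher were Vcan (0.39), Bcas1 (0.62) and Bmp4 (0.69). Over all genes tested, 30.1% were then called lower and 28.5% higher. For the Olig2-Cre pair 4 were called lower (Pdgfra, Vcan, Gpr17 and Bcas1), where 6.91% of all genes tested were called lower, and 0 were called higher against 4.95%. Between Fto Tg and WT, Pdgfra and Vcan were called lower and Matn4 higher, against 8.51% and 6.97% of all genes. Bcas1 passed the false discovery rate there but not the fold threshold.

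The same test between controls shows how often these genes are called with no deletion or transgene. Each control pair crosses experiments, unlike the altered pairs, and those with WT also set it against f/f mice. Differences between controls are therefore not the spread of replicates within an experiment. Over the 3 control pairs it made 4 calls on the 9 genes. Gpr17 and Enpp6 were called lower in the Olig2-pair control than in the Nestin-pair control (7.01% of all genes called lower). Gpr17 was also called lower in WT than in the Nestin-pair control (8.92%), and Pdgfra was called higher in WT than in the Olig2-pair control (3.21%). The dispersion of the 3 controls was also put into an exact test of edgeR, called at a false discovery rate below 0.05 and the same fold change. The Olig2-Cre and Fto pairs then had 0 members called each, and 58 and 103 of all genes. In the Nestin-Cre pair 6 members were called, all lower, and 10047 of all genes.

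**Figure D2:**
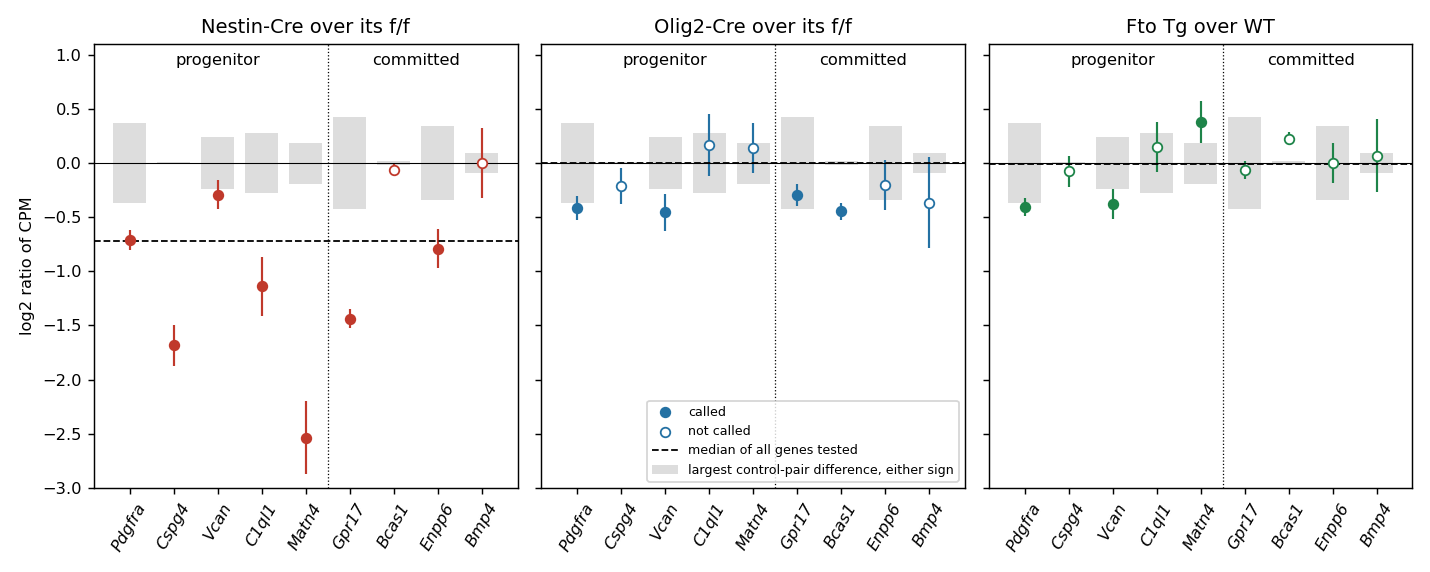
Log2 ratios of CPM for the 9 genes in the Nestin-Cre, Olig2-Cre and Fto pairs, with bars for 95% counting intervals, filled symbols for called genes, grey boxes for the largest difference between any 2 controls in either direction, and a dashed line for the median of all genes tested. In the Nestin-Cre panel the dashed line lies at -0.72 and Pdgfra (-0.71) lies on it. In the other panels the dashed line lies at zero and Pdgfra, Cspg4, Vcan and Bcas1 are outside their grey boxes. Bmp4 (-0.36) is also outside in the Olig2-Cre panel, and Matn4 (0.38) is outside on the upper side in the Fto panel. The counting intervals of Bmp4 in the Olig2-Cre panel and of Cspg4 in the Fto panel contain zero. The boxes of Cspg4 and Bcas1 are narrower than their counting intervals.

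Taking the range of the 3 controls as the yardstick, 8 of the 9 genes in Nestin-Cre were below it and Bmp4 was within it, where 72.8% of the 14539 genes with a mean of at least 1 CPM were below. In Olig2-Cre 7 were below, C1ql1 and Matn4 were within, and none was above, against 29.7% of all genes below and 30% above. In Fto Tg 4 were below (Pdgfra, Cspg4, Vcan and Gpr17), 4 were above (C1ql1, Matn4, Bcas1 and Bmp4) and Enpp6 was within, against 29.9% below and 29.7% above. The 4 genes below the controls in all altered libraries were Pdgfra, Cspg4, Vcan and Gpr17. The share of all genes below the controls in all altered libraries was not counted, so this number has no background beside it. These placements carry no test.

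The stages were compared by the median log2 ratio of the 5 progenitor genes minus that of the 4 committed genes, which does not depend on how the libraries are scaled. The medians were -1.14 and -0.43 in the Nestin-Cre pair, a difference of -0.71 with the progenitor genes lower. With the GC and length adjustment, which is made gene by gene and so can change the difference, it was -0.46. Olig2-Cre had medians of -0.21 and -0.33, a difference of 0.12 in the other direction. Fto Tg had medians of -0.08 and 0.04, a difference of -0.11. The same difference between controls was 0.07, 0.14 and 0.20 in the 3 control pairs, which cross experiments. The Olig2-Cre and Fto differences were no larger in size than the largest of these. However, the Olig2-Cre difference was larger with the GC and length adjustment (0.29) and against the Nestin-pair control (0.28). Within both stages the genes were spread widely in the Nestin-Cre pair, from -2.54 to -0.29 for the progenitor genes and from -1.44 to 0.00 for the committed genes, and these ranges overlap. With 5 and 4 genes and 1 library a group, no test was made.

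Seen library by library, the mean log2 CPM of the progenitor genes minus that of the committed genes was -0.48, -0.43 and -0.25 in the Nestin-pair control, the Olig2-pair control and WT. The balance was -0.26 in Olig2-Cre and -0.38 in Fto Tg, both within the controls, and -1.18 in Nestin-Cre, outside them. Olig2-Cre (-0.258) was within by a narrow margin below WT (-0.2512), and it was above both f/f controls. Summed over genes, progenitor CPM was 146 and 120 and committed CPM 244 and 188 in the Olig2-pair control and Olig2-Cre. The ratio of these sums, progenitor over committed, was 0.441 in Nestin-Cre, 0.637 in Olig2-Cre and 0.565 in Fto Tg, against 0.569 to 0.722 in the controls, so by sums Fto Tg was just below them.

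**Figure D3:**
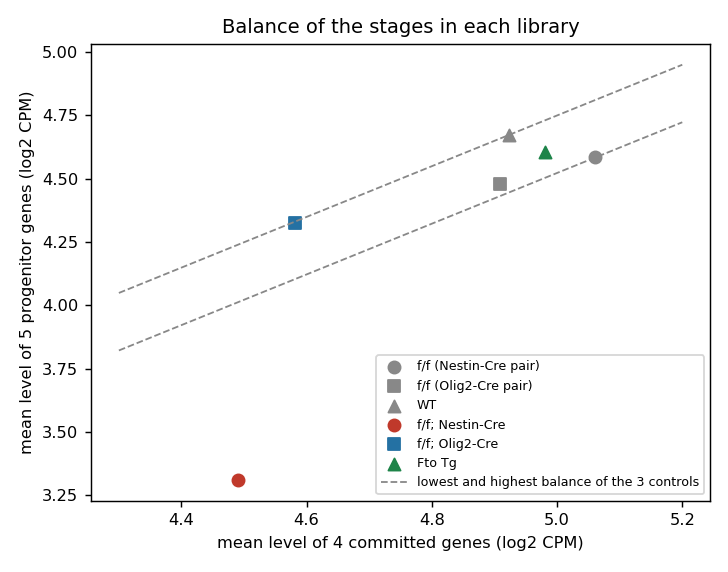
Mean log2 CPM of the 5 progenitor genes against that of the 4 committed genes in each library, with dashed lines of constant balance through the lowest and the highest control. Olig2-Cre lies lower on both axes but between the lines, close to the upper one through WT (balance -0.26), whereas Nestin-Cre lies far below them (balance -1.18).

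GC content was examined because the count-weighted mean GC content of transcripts was lowest in the Nestin-Cre library. The comparison below was chosen after the values had been seen. Each gene was set beside the median log2 ratio of genes within 1 percentage point of its own GC content and with at least 100 counts over the pair. For Nestin-Cre over its control, Pdgfra (48.1% GC), Cspg4 (59.2%) and Vcan (43.7%) lay within 0.14 of their GC neighbors, whose medians were -0.57, -1.55 and -0.33. The log2 ratio of the gene minus the median of its neighbors was -1.78 for Matn4, -0.53 for Enpp6 and -0.41 for Gpr17, against 0.69 for Bcas1, 0.91 for Bmp4 and 1.81 for C1ql1. C1ql1, at 65.8% GC, had only 34 such neighbors, with a median of -2.95. In total 5 of the 9 genes were below their neighbors in this pair.

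For Olig2-Cre, where GC neighbors had medians between -0.09 and 0.22, 8 of the 9 genes were below them and Matn4 was above. The differences were -0.40 for Pdgfra, -0.38 for Vcan, -0.47 for Bcas1, -0.36 for Gpr17, -0.42 for Bmp4 and -0.32 for Cspg4. For Fto Tg 5 of the 9 were below, with Pdgfra (-0.37) and Vcan (-0.28) the farthest. These differences carry no test, since members and neighbors come from the same libraries.

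**Figure D4:**
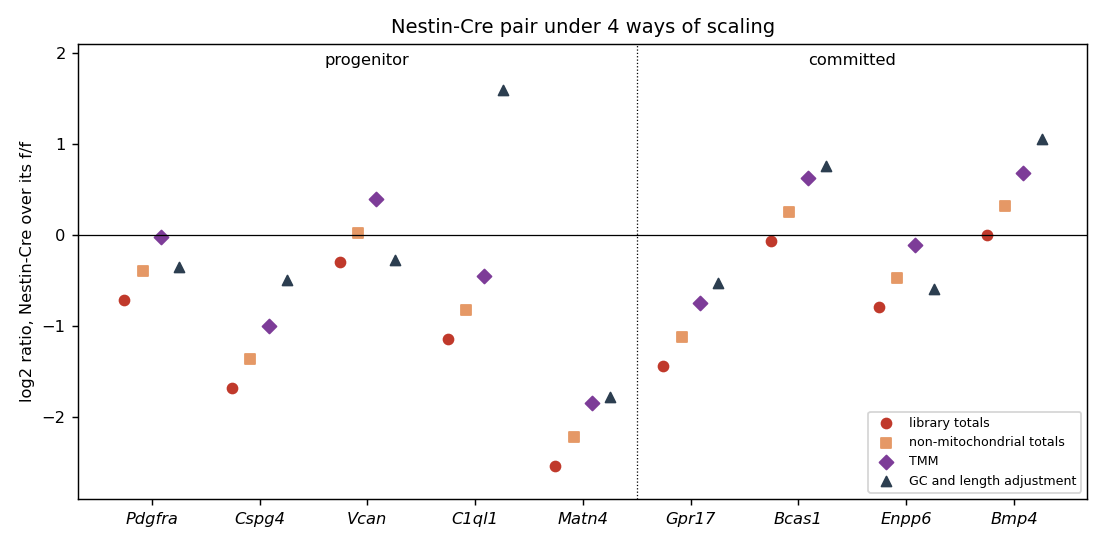
Log2 ratios of the 9 genes in the Nestin-Cre pair under library totals, non-mitochondrial totals, TMM factors and an adjustment for GC content and exon length. Matn4, Cspg4, Gpr17, Enpp6 and Pdgfra stay below zero under these 4 (Pdgfra at -0.02 with TMM), Vcan, Bcas1 and Bmp4 lie above zero with TMM, and C1ql1 moves from -1.14 to 1.60 with the GC and length adjustment.

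The only contrast with more than 1 library on each side sets both Cre libraries against both f/f libraries, and it can show only what the Cre drivers have in common. With the quasi-likelihood test of edgeR, 0 of 16921 genes passed a false discovery rate of 0.05 (0% called), 143 had an unadjusted p below 0.05, and DESeq2 called 3 genes (0.0119%). No member was among the calls. The fitted log2 differences of the members ran from -0.60 for Matn4 to 0.25 for Bmp4, with -0.53 for Gpr17, -0.55 for Cspg4 and -0.19 for Pdgfra. The biological coefficient of variation over the 4 libraries was 0.399, against 0.133 over the 3 controls. Over the alternative settings, fits without 1 of the libraries included, the differences ran from -1.75 to 0.04 for Matn4 and from -0.98 to -0.21 for Cspg4. They ran from -0.70 to -0.34 for Gpr17 and from -0.45 to 0.65 for Bcas1. A fit without 1 library leaves a lone library on its side, which is assumed to vary like the other side.

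Further genes of the same stages were taken from lists written with earlier results of these data known. Of 12 further progenitor genes, 6 were called lower and 3 higher in the Nestin-Cre pair, with a median log2 ratio of -0.56 against -0.72 for all genes. These counts are near the shares of all genes there, 53.4% lower and 11.5% higher. The largest ratios were those of Emid1 (-2.42), Rlbp1 (-1.74) and the matrix glycoprotein gene Tnr (-1.02). The 3 called higher, named after their values were seen, were Cacng4 (0.69), the protocadherin Pcdh15 (0.45) and the receptor phosphatase Ptprz1 (0.32). Olig2-Cre had 4 of the 12 called lower and 0 higher, against 6.91% and 4.95% of all genes. The 4 were Tnr (-0.68), Pcdh15 (-0.65), Xylt1 (-0.57) and Sox6 (-0.36). Fto Tg had 3 called lower, Pcdh15 (-1.01), Tnr (-0.68) and Ptprz1 (-0.41), and Rlbp1 (0.49) higher. The shares of all genes in that pair were 8.51% lower and 6.97% higher. Tnr and Xylt1 were also called between f/f controls.

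Of 12 further committed or newly formed genes, 10 were called lower and none higher in the Nestin-Cre pair, with a median of -0.91. Of all genes tested there, 53.4% were called lower and 11.5% higher. Tns3 (-1.72) and the motor protein gene Kif19a (-1.60) had the largest falls. For the Olig2-Cre pair 0 were called lower and 1 higher, the transcription factor gene Mycl (0.29), with a median of -0.20. The shares of all genes there were 6.91% lower and 4.95% higher. Fto Tg had 1 called lower (Cemip2, -0.41) and 1 higher (Rras2, 0.33), against 8.51% and 6.97% of all genes. In the Olig2-Cre pair 11 of the 12 were below zero, against 7 of the 12 further progenitor genes and 50.6% of all genes tested.

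Transcription factors and ligands of the lineage were described for the same pairs. Olig2, which specifies the lineage, was called lower in all 3 pairs, at -1.33, -0.63 and -0.45, and in the Olig2-Cre pair the Cre allele itself removes Olig2 dosage, so the allele and the deletion cannot be told apart there. Its neighbor Olig1 went from -3.06 in the Nestin-Cre pair to 0.52 and 0.83 in the Olig2-Cre and Fto pairs. Sox10, the factor retained through all stages, was at -1.03, -0.27 and 0.13. Of the 4 PDGF ligands, 3 were called lower in the Nestin-Cre pair, where 53.4% of all genes were called lower, and none was called in the Olig2-Cre pair. Pdgfa (0.36) and Pdgfb (0.38) were called higher in the Fto pair, against 6.97% of all genes. The lowest ligand ratio there, -0.37, was not called. For WT over the Nestin-pair control, 1 ligand was called higher and 1 lower. Of 17 genes of the BMP pathway in which Bmp4 acts, 9 were called lower and 2 higher in the Nestin-Cre pair. These counts are near the shares of all genes there, 53.4% lower and 11.5% higher. In the Olig2-Cre pair 1 was called lower and 3 higher, against 6.91% and 4.95% of all genes. In the Fto pair 3 were called lower, against 8.51%. The 3 higher in Olig2-Cre were the BMP target genes Id1 (0.80), Id2 (0.40) and Id3 (0.28), and the type 2 receptor gene Bmpr2 was the lower one (-1.41). These genes also differed between the f/f controls, and over the Nestin-pair control Olig2-Cre had log2 ratios of 0.42 for Id1, 1.02 for Id2, -0.29 for Id3 and -0.32 for Bmpr2, a comparison added after the data were seen.

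Vcan belongs to the lecticans, and 5 relatives and partners (Acan, Bcan, Ncan, Hapln1 and Cspg5) were described beside it. None was called in the Olig2-Cre or Fto pair, with medians of 0.09 and 0.04. Bcan (-2.24), Cspg5 (-2.24) and Acan (-0.47) were lower in the Nestin-Cre pair, where 53.4% of all genes were called lower. Of 6 proliferation genes none was called in the Olig2-Cre pair. In the Nestin-Cre pair 3 were called lower and Mki67 higher (1.08), against 53.4% of all genes called lower and 11.5% higher. In the Fto pair only Pcna was called, as higher (0.47), against 6.97% of all genes.

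The mature stage was described in the same way. Of 20 mature oligodendrocyte genes, 17 were called lower in the Nestin-Cre pair (median -1.40), against 53.4% of all genes. In the Olig2-Cre pair 11 were called lower (median -0.29), against 6.91%. Called higher in these pairs were 1 and 0, against 11.5% and 4.95%. For Fto Tg 8 were called higher and 0 lower, against 6.97% and 8.51% of all genes, with a median of 0.27. In that pair the 5 progenitor genes had a median of -0.08, with Pdgfra and Vcan called lower and Matn4 called higher. The 4 committed genes had a median of 0.04. Summed mature CPM was 12218 in Fto Tg against 9219 to 10617 in the controls.

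Genes whose levels followed the members most closely were found by the root mean square distance of log2 CPM, centred over libraries, from the mean profile of a stage, among 11560 genes with a mean of at least 5 CPM. Over the 6 libraries these were Gpr135, Fbxw17, Nfatc2ip, Sertad2 and Cacul1 for the progenitor genes and Ccdc84, Fmod, Ankzf1, Parp2 and Eml1 for the committed genes. Their distances were 0.036 to 0.058 and 0.052 to 0.064, and those of the members themselves were 0.12 to 0.51 and 0.076 to 0.27. The named genes were picked for the smallest distance, so their lower values follow from the choice and do not measure how alike the members are. Without the Nestin-Cre library the lists became Vsnl1, Rrp15, Gpr135, Osbpl1a and Pspc1, and Fmod, Fbxl12, Eml1, Colgalt2 and Tmbim1.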

How the data were processed

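Hippocampal RNA from 6 groups was sequenced, 1 library each. The deposited files hold whole-number counts per gene, which the authors made by trimming, alignment to mm10 with TopHat, and counting unique reads with HTSeq in union mode without strand. The submitters' processing notes name TopHat2 2.0.9 and HTSeq 0.6, and the methods of the study name another TopHat version. The methods describe paired-end reads, and the labels allow single or paired reads. Reads that overlap 2 genes were not counted, and 12.6% of the exon bases of Bcas1 and 3.62% of those of Gpr17 overlap exons of opposite-strand genes that the files also list. Members and gene lists were chosen with earlier results of these data known. A gene was left out of the lists and is not reported here. All members, Prrc2a and Fto were named, and at most 4 genes of each other list by size of ratio, besides members of counts of 5 or fewer.

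Counts were scaled by library totals (18616540 to 35482589). Intervals for CPM are Wilson 95% intervals and those for log2 ratios are normal 95% intervals, and both cover counting error only. The MARS formulas of DEGseq were programmed in Python 3.11.15 with a pseudocount of 0.5 and at least 10 counts over the pair, which all 9 measured members passed, and tested on simulated data. edgeR 4.0.16 (TMM, filterByExpr), DESeq2 1.42.0 and mgcv 1.9.3 were run in R 4.3.3. Symbols, GC content and lengths came from GENCODE M21 on GRCm38, the assembly of mm10. Alternatives changed the scaling, filter, pseudocount, test, fold threshold and control library.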

Additional observations from a re-analysis of the deposited data

Results flagged for a closer look

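In 3 genes the altered library of the Nestin-Cre pair and that of the Olig2-Cre pair had log2 ratios of opposite sign over their own f/f controls, and the difference between the pairs was not tested. C1ql1 had log2 ratios of -1.14 and 0.17, Matn4 of -2.54 and 0.14, and Bmp4 of 0.0019 and -0.36 in the Nestin-Cre and Olig2-Cre pairs. The counting intervals of all 3 contain zero in the Olig2-Cre pair, as does that of Bmp4 in the Nestin-Cre pair. Against the other f/f library the Olig2-Cre ratios of C1ql1 and Matn4 were -0.088 and -0.050 and the Nestin-Cre ratio of Bmp4 was -0.092. For C1ql1 the Nestin-Cre ratio was 1.60 with the GC and length adjustment.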

How the results depend on the processing

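In the Nestin-Cre pair between 6 and 9 members were called under all alternatives, but the direction of several depended on the scaling. Pdgfra was at 0.0068 with DESeq2 size factors. Vcan was at 0.39 (TMM), 0.42 (size factors of DESeq2) and 0.025 (totals without mitochondrial counts). Bcas1 was at 0.62, 0.65 and 0.26 under the same scalings and at 0.76 with the GC and length adjustment, which also put C1ql1 at 1.60. Bmp4 was at -0.092 against the other f/f library. The stage difference moved to -0.46 with the GC and length adjustment. In the Olig2-Cre pair 0 members were called with the exact test and 0 at a fold change of 1.5. C1ql1 was at -0.037 with the GC and length adjustment and at -0.088 against the other f/f library, where Matn4 was at -0.050, and the stage difference was 0.29 and 0.28 in these settings. In the Fto pair 1 member was called with the GC and length adjustment, 0 with the exact test and 0 at a fold change of 1.5. With that adjustment Cspg4 was at 0.032, C1ql1 at -0.14 and Bmp4 at -0.094, and Enpp6 was at -0.0027 with non-mitochondrial totals. The cause of these shifts was not tested, except that the stricter fold threshold leaves fewer genes by construction.

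For both Cre libraries against both f/f libraries, leaving out each library in turn gave 0 to 4 members, the 4 without Olig2-Cre replicate 1. DESeq2, DESeq2 size factors and no filter gave 0 members, and so did experiment as a block, which pairs each Cre library with its own f/f library and called 2 genes in all. The labels carry no replicate numbers. Of 90, 90 and 81 single-gene values under alternatives in the Nestin-Cre, Olig2-Cre and Fto pairs, 73, 80 and 73 had the call reported above, 8, 9 and 8 lost it, 6, 1 and 0 gained one, and 3, 0 and 0 were called in the other direction. Depth limited Bmp4 in the Olig2-Cre pair most, with 68 reads in the altered library and a counting SE of 0.21.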
